A study of Mus musculus with 18 samples.

Results

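The response of parental WEHI-231 cells to 6 h of B cell antigen receptor (BCR) ligation is described here from 4 RNA sequencing libraries of an 18-library series. WEHI-231 is a murine B cell lymphoma line that carries an IgM receptor on its surface. Libraries were assigned by their labels: 2 libraries of parental, wild-type cells left untreated (0 h) and 2 of the same cells kept for 6 h with 10 µg/ml of F(ab')2 fragments of an anti-IgM antibody. Antibody fragments of this kind cross-link the receptor without engaging Fc receptors. All cells grew in RPMI medium with fetal serum and received no T cell help or other co-stimulus. The remaining libraries were parental cells after 18 h with the antibody (2 libraries) and 2 TFEB-edited clones, named A-59 and B-20, at 0, 6 and 18 h (12 libraries). The labels name both clones TFEB KO. Each clone is a single Cas9-edited line, so that the edit and the history of that clone cannot be told apart. Libraries 1 and 2 of each group stem from separate experiments.

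Receptor ligation activates the kinases Lyn and Syk, which in turn open calcium, Ras-ERK, PI3K and NF-κB pathways. In mature B cells these pathways raise early response genes within the first hour, followed by metabolic and surface molecules that prepare the cell for T cell help. In WEHI-231 cells, a long-used model of an immature B cell, sustained ligation without help is known to stop the cell cycle and to end in apoptosis. A sample at 6 h lies after the first wave of early genes and before most cells die.

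Sequencing depth was 24305655 and 27571177 counts for the untreated libraries, and 22416854 and 24059996 counts after 6 h. The deposited values are reads per Ensembl gene. They are given here as CPM, reads of a gene per Mio counted reads, after TMM scaling, a library scaling that assumes most genes stay level. The line's label was checked against marker genes. All 10 B lymphocyte markers were found in each library, summing to 9295 and 10070 CPM at 0 h and to 6894 and 7089 CPM at 6 h. The 7 myeloid markers summed to at most 1.66 CPM, the 4 erythroid markers to at most 0.0437 CPM and the 4 NK cell markers to at most 0.145 CPM. Plasma cell markers summed to at most 7.34 CPM, dendritic cell markers to at most 5.199 CPM and fibroblast markers to at most 1.86 CPM. T cell markers summed to between 65.2 and 86.6 CPM, nearly all of it Lck (64.9 to 86.0 CPM), a kinase gene. The B lymphocyte sum was lower at 6 h in both libraries, and its part in the results below was not tested. In bulk RNA, fewer cells that express a gene and less RNA of it per cell cannot be told apart.

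Of 15318 genes with enough counts to test, 402 were called between 6 h and 0 h, which is 2.62% of those tested. A gene was called when edgeR's quasi-likelihood test gave a Benjamini-Hochberg adjusted p under 0.01 and the log2 fold change lay beyond 1 in either direction. There were 179 genes called higher (1.17% of those tested) and 223 called lower (1.46%). The median log2 fold change of all tested genes was 0.01. By CPM, which is not corrected for transcript length, genes called higher had a median of 1.65 untreated, genes called lower of 12.4 and all tested genes of 18.4. Large changes were mostly increases: 60 genes were called higher with a log2 fold change above 2, and 36 were called lower with one below −2. Without the limit on the fold change, 475 genes (3.1%) were higher and 649 (4.24%) lower at the same adjusted p. Counts within the gene lists below are to be read beside these shares and those of the called genes.

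**Figure D1:**
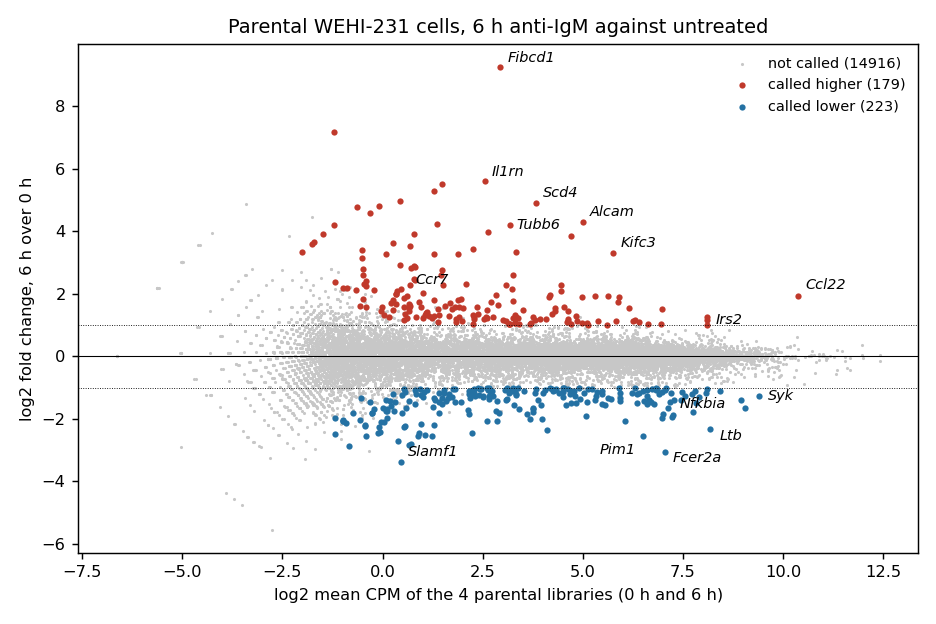
Each point is a tested gene, placed by its log2 mean CPM over the 4 parental libraries and its log2 fold change from 0 h to 6 h. The 179 genes called higher (red) reach further from 0 than the 223 called lower (blue), and Ccl22 stands out among abundant genes.

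The 12 largest increases described here are those of called genes with a gene name and a mean of at least 5 CPM at 6 h. Fibcd1, which encodes a membrane-bound lectin for acetylated ligands, had 0 and 0.0414 CPM untreated and 12.4 and 18.2 CPM at 6 h. These were 1 read against 728, a ratio of 797 with an exact 95% counting interval of 143 to 31530. Fibcd1 (Ensembl gene ENSMUSG00000026841) lies on chromosome 2 from 31813290 to 31846964 in GRCm38. Il1rn, the secreted antagonist of the IL-1 receptor, stood at 0.217 and 0.248 CPM untreated and at 11.8 and 11.2 CPM at 6 h (log2 fold change 5.595 ± 0.43 SE, adjusted p = 3.39e-07). Alcam, a cell adhesion molecule of the immunoglobulin family, went from 2.89 and 3.27 to 57.1 and 64.6 CPM. That was a 19.8-fold rise (log2 fold change 4.30 ± 0.24, adjusted p = 1.42e-09), with libraries of a group close together and the groups far apart. Alcam spans chromosome 16 from 52248996 to 52453081.

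Tubb6, a beta-tubulin gene, read 3.47 and 3.31 CPM untreated and 53.4 and 44.2 CPM at 6 h (log2 fold change 3.84 ± 0.27, adjusted p = 8.13e-08). Kifc3, a minus-end-directed kinesin motor, had 9.44 and 10.5 CPM untreated against 97.7 and 99.7 CPM at 6 h (log2 fold change 3.31 ± 0.17, adjusted p = 9.77e-10). The annotation of Kifc3 overlaps that of other genes, and the libraries carry no strand, so that reads of such pairs cannot be told apart. Annotated overlaps also exist for other genes named below, among them Fcer2a, Cxcr5, Ctsz, Gpr18 and Ddit3. Among lipid enzymes, Lpl, the lipoprotein lipase, rose from 0.145 and 0.0828 CPM to 5.199 and 5.77 CPM. Scd4, a stearoyl-CoA desaturase gene, rose from 0.76 and 1.08 to 26.8 and 28.2 CPM (log2 fold change 4.91 ± 0.22, adjusted p = 1.29e-10). Scd1 and Scd2, its close relatives with which it could share reads, had log2 fold changes of −0.14 (3155 to 2868 CPM on average) and 0.37 (3485 to 4505 CPM).

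The other genes among these 12 were Ndrg4, Serpinb6b, Havcr1, Ms4a6c and Lgals7. Ndrg4 rose from 0.76 and 1.12 to 15.03 and 19.3 CPM, and Serpinb6b, a serine protease inhibitor gene of a family of near copies, from 0.615 and 0.869 to 11.1 and 12.03 CPM. Ms4a6c, a member of a clustered family of membrane proteins with similar sequences, rose from 1.77 and 1.86 to 19.5 and 16.98 CPM. Lgals7, which encodes a galectin, rose from 0.76 and 0.621 to 6.64 and 6.71 CPM. Counts of Serpinb6b and Ms4a6c are uncertain where reads match several family members.

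Chemokines and their receptors moved in both directions. Ccl22, which encodes a chemokine that attracts CCR4-bearing T cells, was already abundant at 579 and 531 CPM and reached 2244 and 1954 CPM at 6 h. The rise was 3.78-fold (log2 fold change 1.92 ± 0.19, adjusted p = 9.23e-06), far beyond the spread within either group. Ccr7, the receptor that guides B cells to the T cell zone, had 1.302 and 1.53 CPM untreated and 6.33 and 7.82 CPM at 6 h (log2 fold change 2.32 ± 0.24, adjusted p = 2.08e-06). Ccr1 rose from 2.42 and 1.28 to 6.29 and 4.95 CPM, a call (adjusted p = 0.0067) that was lost in 3 of 4 fits that left out a parental library of this comparison, the exception being the fit without the first untreated library. Cxcr5, the receptor for the follicle, fell from 354 and 399 to 165 and 167 CPM (log2 fold change −1.18 ± 0.11, adjusted p = 3.50e-07). Gpr18 fell from 11.1 and 14.6 to 6.38 and 6.38 CPM, a call lost without the second untreated library (log2 fold change −0.81). Cxcr4 read 63.9 and 51.0 CPM untreated and 72.2 and 69.4 CPM at 6 h (adjusted p = 0.41). Of 33 genes listed for chemokines and positioning, 21 were tested. Called higher were 3 and called lower 2, against 1.17% and 1.46% of all tested genes.

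**Figure D2:**
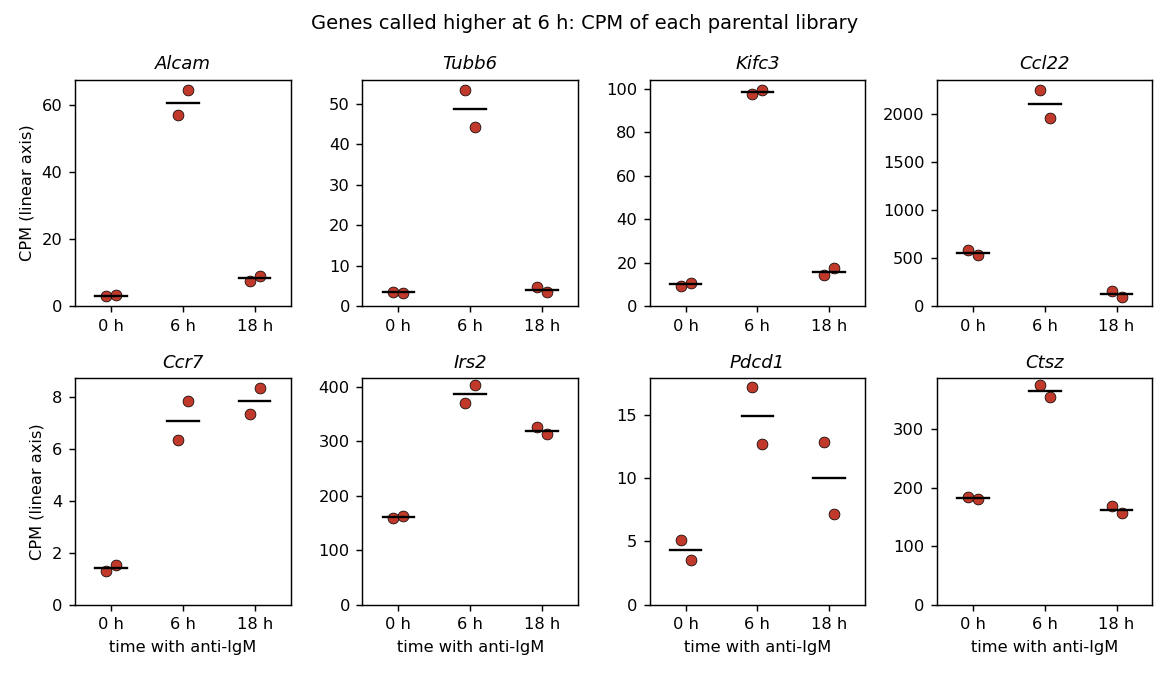
CPM of each parental library (points) and the mean of 2 (bars) at 0, 6 and 18 h for 8 genes called higher at 6 h, on linear axes that start at 0. The libraries at 6 h lie above those at 0 h in every panel. At 18 h Alcam, Tubb6, Kifc3, Ccl22 and Ctsz lay below 6 h, while Ccr7 (7.31 and 8.35 CPM) and Irs2 (326 and 313 CPM) were close to it.

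Of the 30 gene lists described, that of the NF-κB pathway had the lowest median. The lists were written with earlier results of these data known, so this rank is a description only. NF-κB factors are dimers of Rel proteins held in the cytoplasm by inhibitors of the IκB family, and their targets include genes of those same inhibitors, which close a feedback loop. Of 29 genes listed for the pathway 27 were tested, of which 7 fell past both limits and 0 rose. Among all tested genes 1.46% were called lower and 1.17% higher. The median log2 fold change of the 27 was −0.62, against 0.01 for all tested genes, and 23 of the 27 were below 0. At the adjusted p alone 12 fell and 1, Traf1, rose, against 4.24% and 3.1% of all tested genes. The median remained between −0.66 and −0.58 with any 1 of the 4 libraries left out.

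Among the inhibitors and feedback genes, Nfkbia, which encodes IκBα, fell from 235 and 242 to 60.0 and 64.9 CPM (log2 fold change −1.94 ± 0.14, adjusted p = 2.58e-08). Tnfaip3, which encodes the ubiquitin-editing enzyme A20, fell from 119 and 94.8 to 26.1 and 24.6 CPM (log2 fold change −2.08 ± 0.27, adjusted p = 1.93e-04). Nfkbid, a nuclear IκB protein gene, fell from 323 and 346 to 95.9 and 99.1 CPM. For all of them the lowest untreated library was above 3 times the highest library at 6 h. Other inhibitors differed by less: Nfkbie had a log2 fold change of −0.45, Nfkbib of −0.09, Bcl3 of 0.04 and Cyld of −0.30, with none past either limit.

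Among the targets and upstream members, Cd40, the receptor for the T cell signal CD40L, fell from 199 and 205 to 60.9 and 51.6 CPM (log2 fold change −1.84 ± 0.14, adjusted p = 9.13e-08). Birc3, an inhibitor of apoptosis protein, fell from 158 and 167 to 57.6 and 55.4 CPM. Map3k8, the kinase TPL2, fell from 20.3 and 20.8 to 6.51 and 6.30 CPM, and Ebi3, a cytokine subunit, from 59.8 and 62.0 to 28.6 and 27.8 CPM. Of the subunits, Relb, Nfkb1, Nfkb2 and Rel passed the adjusted p with log2 fold changes of −0.92, −0.79, −0.71 and −0.62, short of the limit on the fold, and Rela had −0.15. Tnf had a log2 fold change of −1.75 (11.9 to 3.53 CPM on average) that did not pass the adjusted p.

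Promoter sequences of genes in this group are shown because they carry matches to the 10-base NF-κB consensus. The windows run from 250 bases before to 50 bases after an annotated start in GRCm38.p6 and read 5′ to 3′ on the gene's strand. For Nfkbid, whose gene starts at 30421731, the window shown lies within the gene. Nfkbid had 3 windows and Tnfaip3 2, and only windows with a match are shown. Capitals mark each match on either strand. Tnfaip3 lies at chr10:19015361-19015660 on the minus strand, Nfkbia at chr12:55492598-55492897 (minus), Nfkbid at chr7:30422156-30422455 (plus), Ltb at chr17:35194257-35194556 (plus) and, as a gene that rose and also holds a match, Ctsz at chr2:174438990-174439289 (minus).
Tnfaip3: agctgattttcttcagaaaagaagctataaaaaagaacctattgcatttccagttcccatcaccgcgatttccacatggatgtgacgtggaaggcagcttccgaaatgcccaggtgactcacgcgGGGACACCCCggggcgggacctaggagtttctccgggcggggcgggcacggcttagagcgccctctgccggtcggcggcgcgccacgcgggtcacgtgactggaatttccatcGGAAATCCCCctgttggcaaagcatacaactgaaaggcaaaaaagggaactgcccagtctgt
Nfkbia: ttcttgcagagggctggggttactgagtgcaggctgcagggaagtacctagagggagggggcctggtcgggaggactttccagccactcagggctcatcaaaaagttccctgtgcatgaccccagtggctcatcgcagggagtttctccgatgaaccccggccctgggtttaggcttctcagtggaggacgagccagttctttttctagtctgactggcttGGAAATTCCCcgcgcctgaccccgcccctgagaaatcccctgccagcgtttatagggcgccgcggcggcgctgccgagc
Nfkbid: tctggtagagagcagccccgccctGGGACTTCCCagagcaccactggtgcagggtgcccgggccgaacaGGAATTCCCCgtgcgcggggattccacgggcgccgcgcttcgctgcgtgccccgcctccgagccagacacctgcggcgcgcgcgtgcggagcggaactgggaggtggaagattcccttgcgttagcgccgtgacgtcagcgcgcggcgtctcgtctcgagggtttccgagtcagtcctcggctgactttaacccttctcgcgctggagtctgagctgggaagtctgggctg
Ltb: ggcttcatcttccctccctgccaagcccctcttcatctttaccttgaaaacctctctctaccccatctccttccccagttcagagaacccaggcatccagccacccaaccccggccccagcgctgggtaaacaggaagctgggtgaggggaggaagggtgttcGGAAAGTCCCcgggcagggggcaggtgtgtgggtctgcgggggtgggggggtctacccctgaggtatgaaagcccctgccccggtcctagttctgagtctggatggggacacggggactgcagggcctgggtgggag
Ctsz: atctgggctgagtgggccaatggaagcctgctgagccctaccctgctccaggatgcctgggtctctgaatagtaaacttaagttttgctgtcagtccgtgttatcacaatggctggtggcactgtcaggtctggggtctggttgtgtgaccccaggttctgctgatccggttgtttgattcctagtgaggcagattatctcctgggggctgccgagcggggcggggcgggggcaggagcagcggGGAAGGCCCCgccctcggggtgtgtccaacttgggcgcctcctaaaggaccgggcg

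Of the windows shown, those of Tnfaip3 and Nfkbid each held 2 matches and the others 1. Of the 7 NF-κB list members called lower 5 had a window, and 4 of these held a match, Birc3 being the exception. Over the whole list 10 of 22 members with a window did. The consensus was found in the windows of 23.6% of genes called lower (34 of 144), 19.5% of genes called higher (26 of 133) and 12.2% of all tested genes with a window (1236 of 10172), and in 8.46% of all 32851 windows. The shares in both directions of change were thus above that of all tested genes, and no test was made. The consensus was added after the data were seen. A separate, shorter NF-κB pattern, GGGANTTCC, was rarer, at 3.47% of genes called lower, 4.51% of genes called higher and 2.73% of those tested. AP-1 sites (TGANTCA) were in 12% of genes called higher, 6.94% of genes called lower and 5.9% of those tested. E-boxes (CACGTG), the core of the sites that MiT/TFE and Myc factors bind, were in 6.77% of genes called higher, 4.17% of genes called lower and 11.5% of those tested. EGR sites (GCGTGGGCG or GCGGGGGCG) were in 9.02%, 4.17% and 7.57% of these groups in the same order, CRE (TGACGTCA) in 1.5%, 1.39% and 3.52%, and the CArG box in 3.01%, 2.08% and 1.55%. Both strands were searched for each. A match is only a run of letters, and its absence from this window says nothing about the factor.

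**Figure D3:**
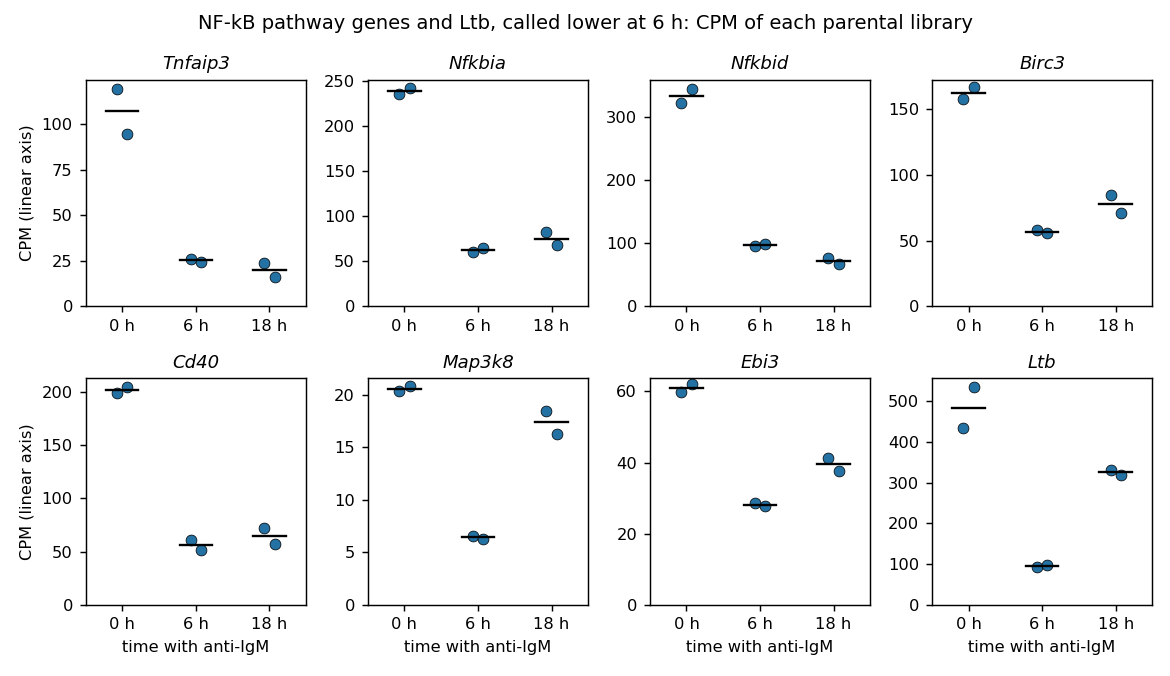
CPM of each parental library (points) and the mean of 2 (bars) at 0, 6 and 18 h for the 7 NF-κB list members called lower and for Ltb, on linear axes that start at 0. The untreated libraries lie above the 6 h libraries in every panel. At 18 h Map3k8 (18.5 and 16.3 CPM) and Ltb (332 and 318 CPM) were above 6 h, while Tnfaip3, Nfkbia and Cd40 were near it.

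Fcer2a, Ltb, Pim1 and Niban3 were among the 12 largest decreases of called genes with a gene name and a mean of at least 5 CPM untreated. Fcer2a, the low-affinity IgE receptor CD23, fell from 193 and 281 to 27.0 and 30.2 CPM (log2 fold change −3.05 ± 0.25, adjusted p = 2.70e-06). Ltb, which encodes lymphotoxin β, fell from 435 and 534 to 94.0 and 97.7 CPM (log2 fold change −2.34 ± 0.14, adjusted p = 4.88e-09). Pim1, a serine kinase that supports survival, fell from 163 and 149 to 27.1 and 25.8 CPM (log2 fold change −2.56 ± 0.17, adjusted p = 2.20e-08). Niban3 fell from 193 and 212 to 51.4 and 51.5 CPM. In each of them the libraries of a group lay close together compared with the distance between groups, Fcer2a untreated being the widest pair.

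Further genes of these 12 were Arhgap8, Cdh22, Fry and Scube1. Cdh22, a cadherin, fell from 30.2 and 27.4 to 6.204 and 5.07 CPM, and Scube1 from 19.6 and 21.2 to 5.68 and 4.58 CPM. Fry fell from 18.2 and 32.2 to 5.42 and 7.08 CPM, a call that was lost when only the libraries compared entered the fit (adjusted p = 0.0204). Arhgap8 fell from 5.86 and 10.1 to 1.27 and 1.64 CPM.

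Activation markers did not move together. The list of surface activation and costimulatory genes had 37 entries, 32 of them tested, with 3 called higher, 7 called lower and a median log2 fold change of −0.05 (−0.15 without the first untreated library). The shares called among all tested genes were 1.17% higher and 1.46% lower. Pdcd1, the inhibitory receptor PD-1, rose from 5.14 and 3.56 to 17.2 and 12.6 CPM (log2 fold change 1.77 ± 0.26, adjusted p = 1.35e-04). Havcr1, the receptor TIM-1, rose from 0.977 and 0.621 to 10.4 and 7.04 CPM. Tnfrsf9, the costimulatory receptor 4-1BB, had 3 reads untreated and 72 at 6 h, a ratio of 26.3 with an exact 95% counting interval of 8.64 to 130.

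The 7 called lower were Cd40, Slamf1, Cd83, Cd24a, Icosl, Il21r and Slamf7. Cd83, a maturation marker, fell from 9.01 and 10.7 to 2.84 and 1.88 CPM, and its call was lost without the second untreated or the second 6 h library (adjusted p = 0.0106 and 0.0223). Cd24a, a marker of immature B cells, fell from 195 and 233 to 55.9 and 79.8 CPM. Icosl, the ligand of ICOS on T cells, fell from 6.33 and 6.70 to 2.88 and 2.70 CPM, and Il21r, the receptor of IL-21, from 104 and 132 to 53.5 and 50.4 CPM. Slamf1 fell from 2.03 and 2.94 to 0.306 and 0.164 CPM, and Slamf7 from 23.7 and 21.3 to 10.1 and 9.66 CPM. Cd69, the classical early activation marker, read 11.7 and 11.4 CPM untreated and 2.71 and 2.74 CPM at 6 h. Its adjusted p was 0.13 in the fit to all 18 libraries, in which 1 spread per gene is shared by all groups, and 2.08e-06 in a fit to the 4 libraries compared. Cd86 was tested at a mean below 1 CPM and had a log2 fold change of −0.02.

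Of 47 genes listed for the receptor and its proximal signalling chain 43 were tested, with 31 below 0 and 12 above. Cd300a, Syk and Pirb fell past both limits and 0 rose, with a median log2 fold change of −0.30. At the adjusted p alone 18 were lower and 2, Vav2 and Fcgr2b, higher, against 4.24% and 3.1% of all tested genes. Syk, the kinase that propagates the receptor signal, fell 2.44-fold, from 909 and 1015 to 398 and 391.8 CPM (log2 fold change −1.28 ± 0.08, adjusted p = 3.11e-09). Pirb, an inhibitory receptor of a family of near copies, fell from 42.9 and 51.8 to 21.5 and 24.7 CPM, but lost the call in the fits without the first 6 h library or the second untreated library. Cd300a, another inhibitory receptor, fell from 3.87 and 3.85 to 1.09 and 1.72 CPM. Of the 4 coreceptor genes 3 lay above 0 (median log2 fold change 0.09). At the adjusted p alone 0 of them were higher and 1 was lower (−0.55). All 5 kinases tested were below 0, with Lyn at −0.69, Blk at −0.55 and Btk at −0.08 on the log2 scale. The receptor chains Cd79b (−0.62), Ighm (−0.43) and Cd79a (−0.37) passed the adjusted p alone. Inpp5d (−0.07), Cd22 (−0.05) and Ptprc (0.01) passed neither limit.

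Of 36 immediate early genes listed 31 were tested, with Nab2 called higher and Egr3 called lower at 6 h. Of the 31, 12 lay above 0 and 19 below, and the median log2 fold change was −0.10, which became −0.18 without the first and 0.02 without the second untreated library. Nab2, a corepressor of EGR factors, rose from 15.6 and 21.1 to 37.1 and 42.2 CPM (log2 fold change 1.11 ± 0.15, adjusted p = 5.29e-05). Nab2 overlaps Stat6 on the genome, and its log2 fold change was 0.91 without the first untreated library. Egr3, an EGR family factor, fell from 20.7 and 25.5 to 7.08 and 8.68 CPM (adjusted p = 0.0055). The call of Egr3 was lost in each of the 4 fits that left out a library and in the fit with no filter on low counts. Egr1 had 47.9 and 57.1 CPM untreated and 46.6 and 24.5 CPM at 6 h (adjusted p = 0.73), with 6 h libraries that differed more from each other than the groups did. Dusp4, a phosphatase that ends ERK signalling in the nucleus, rose from 0.76 and 0.662 to 5.37 and 4.42 CPM (log2 fold change 2.77 ± 0.32, adjusted p = 6.98e-06). It was the only call among 13 ERK feedback genes tested.

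Genes of the PI3K and FoxO pathways were split, with 2 called higher and 3 lower of 30 tested. Among all tested genes 1.17% were called higher and 1.46% lower. Irs2, an adaptor of the insulin receptor that recruits PI3K, rose from 160 and 163 to 370 and 404 CPM (log2 fold change 1.26 ± 0.12, adjusted p = 5.66e-07). Pik3ip1, an inhibitor of PI3K, rose from 4.92 and 6.79 to 10.7 and 13.1 CPM (adjusted p = 0.0010), a call lost without the first untreated or the second 6 h library (adjusted p = 0.0332 and 0.0268). Inpp4b, a lipid phosphatase of the pathway, fell from 11.2 and 12.2 to 3.10 and 2.54 CPM (log2 fold change −2.05 ± 0.18, adjusted p = 2.08e-07). Klf2 and Klf3, transcription factors of lymphocyte quiescence and trafficking, fell from 97.1 and 132 to 45.6 and 54.4 CPM and from 65.3 and 85.0 to 28.0 and 29.7 CPM. Klf2 lost its call without the second untreated library (log2 fold change −0.96).

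Lists of proliferation genes held few calls at 6 h, near the 2.62% of all tested genes that were called. None of the 36 DNA replication, 38 mitosis or 52 ribosome biogenesis genes tested was called, with median log2 fold changes of 0.23, 0.08 and −0.01. Above 0 lay 33, 28 and 25 of them in the same order, against 7854 of all 15318 genes. Without the second untreated library the replication and mitosis medians were 0.11 and 0.04, and without the first untreated library the mitosis median was 0.14. At the adjusted p alone 3 replication genes were higher, among them Cdc6 and Mcm10, and 0 lower. The shares of all tested genes were 3.1% higher and 4.24% lower. Ccnd2, the D-type cyclin that drives B cells through G1, fell from 236 and 252 to 112 and 109 CPM (log2 fold change −1.14 ± 0.09, adjusted p = 1.24e-07). It was the only call among 22 tested G1 regulators. Ccnd1 had a log2 fold change of −1.27 that missed the adjusted p. Cdkn1b, the inhibitor p27, read 186 and 189 CPM untreated and 196 and 227 CPM at 6 h (adjusted p = 0.57). Myc had 337 and 306 CPM untreated and 162 and 158 CPM at 6 h. Its log2 fold change of −1.003 ± 0.32 had an adjusted p of 0.067 in the fit to all libraries and 8.58e-07 in the fit to the 4 compared.

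The Bcl-2 family had no calls among 18 genes tested, 6 anti-apoptotic and 12 pro-apoptotic. At the adjusted p alone 4 were lower and 1 higher, against 4.24% and 3.1% of all tested genes. The lower ones included 3 that block apoptosis: Bcl2l1, which encodes Bcl-xL (10.1 and 13.1 to 7.08 and 5.69 CPM, log2 fold change −0.86 ± 0.17, adjusted p = 0.0018), Bcl2 (−0.74) and Mcl1 (−0.60). The fourth was the pro-apoptotic Bid (−0.56), and the gene that was higher was the pro-apoptotic Bmf (0.76). Bcl2l15, a pro-apoptotic member, read 239 and 250 CPM untreated and 246 and 259 CPM at 6 h (adjusted p = 0.87). Hrk had 1 read in 1 untreated library and 0 in the other 3, and Il7r had 0 in all 4. A count of 0 in a library allows up to 3 counts, which is between 0.109 and 0.134 CPM in these libraries.

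Lysosomal genes lay mostly above their untreated level, short of the limit on the fold. TFEB belongs to the MiT/TFE factors, which in many cells drive genes of lysosomes and autophagy after they enter the nucleus. Tfeb itself had 79.2 and 82.8 CPM untreated and 84.3 and 83.6 CPM at 6 h (log2 fold change 0.05 ± 0.11, adjusted p = 0.84). Of 29 lysosomal genes tested 1 was called higher and 0 lower, the median log2 fold change was 0.31, and 11 were higher and 0 lower at the adjusted p alone. Among all tested genes 1.17% were called higher, and 3.1% were higher and 4.24% lower at the adjusted p alone. The called gene, Ctsz, which encodes the protease cathepsin Z, rose from 184 and 181 to 376 and 355 CPM (log2 fold change 1.001 ± 0.13, adjusted p = 3.60e-05). It sits at the limit of the fold and fell below it in 5 of 6 other analyses of all 4 libraries, the replicate block being the exception. Among the others at the adjusted p alone were Gla (0.77), Ctsa (0.58), Mcoln1 (0.55), Ctsd (0.54) and Ctsb (0.52). The median of 21 autophagy genes was 0.09, with 0 called and Optn lower at the adjusted p alone (−0.68). Of the 11 tested MiT/TFE and nutrient-sensing genes Flcn (0.51) and Rragc (0.35) were higher and Tfe3 (−0.69) lower at the adjusted p alone.

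Other metabolic and stress lists shifted by less than the limit on the fold. The 36 sterol and fatty acid synthesis genes tested had a median log2 fold change of 0.27 with 0 called, and 6 higher and 0 lower at the adjusted p alone, among them Fads1 (0.76) and Lss (0.62). The shares of all tested genes at the adjusted p alone were 3.1% higher and 4.24% lower. Oxidative phosphorylation (45 tested, median 0.05) and glycolysis and hypoxia genes (32 tested, median −0.004) had no gene past the adjusted p. Of 38 ATF4 and ER stress genes Ddit3, the stress factor CHOP, was called, at 15.4 and 14.7 CPM untreated and 30.7 and 38.5 CPM at 6 h (log2 fold change 1.20 ± 0.16, adjusted p = 3.77e-05). The median of these 38 was 0.22, with 29 above 0 and 9 below, and 4 higher and 0 lower at the adjusted p alone. No p53 target of 24 tested passed the adjusted p. No gene was called among 22 calcium and NFAT, 22 caspase and death receptor, 19 TGF-beta and BMP, 13 MHC class I, 12 Myc network, 6 receptor recombination and 5 cholesterol efflux genes tested, with list medians between −0.12 and 0.02. With 2.62% of all tested genes called, no call in lists this small lies near that share.

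Of 32 interferon-stimulated genes tested 28 lay below 0, against 7458 of all 15318 genes, with a median log2 fold change of −0.44, 2 called lower and 0 higher. At the adjusted p alone 5 were lower and 1 higher, against 4.24% and 3.1% of all tested genes. Without the second 6 h library the median was −0.26 with 0 called. Parp14 fell from 157 and 150 to 79.4 and 67.2 CPM, and lost its call without the second 6 h library (log2 fold change −0.95). Oas2, which senses double-stranded RNA, fell from 13.1 and 11.7 to 5.37 and 5.73 CPM (adjusted p = 0.0073), a call lost in each of the 4 fits without a library. The 12 MHC class II genes had a median of −0.42 and 0 calls. Their median was −0.20 without the second untreated library, and 1 gene was called without the first. Their activator Ciita read 24.95 and 28.3 CPM untreated and 18.5 and 25.2 CPM at 6 h (adjusted p = 0.25). Of 25 B cell identity and differentiation genes Jchain and Mybl1 were called lower, the latter lost in all 4 fits without a library and the former without the second 6 h library. Pax5, the factor of B cell commitment, had a log2 fold change of −0.89 at the adjusted p alone. Id3, an inhibitor of E proteins, read 35.7 and 43.9 CPM untreated and 21.9 and 18.9 CPM at 6 h (log2 fold change −0.96 ± 0.13, adjusted p = 4.32e-05), just inside the limit on the fold. Axin2, a Wnt target and the only call among 13 Wnt genes tested, fell from 17.4 and 14.9 to 4.68 and 5.24 CPM. The integrin Itgb7, the only call among 16 adhesion genes tested, fell from 44.4 and 56.1 to 16.5 and 19.8 CPM.

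**Figure D4:**
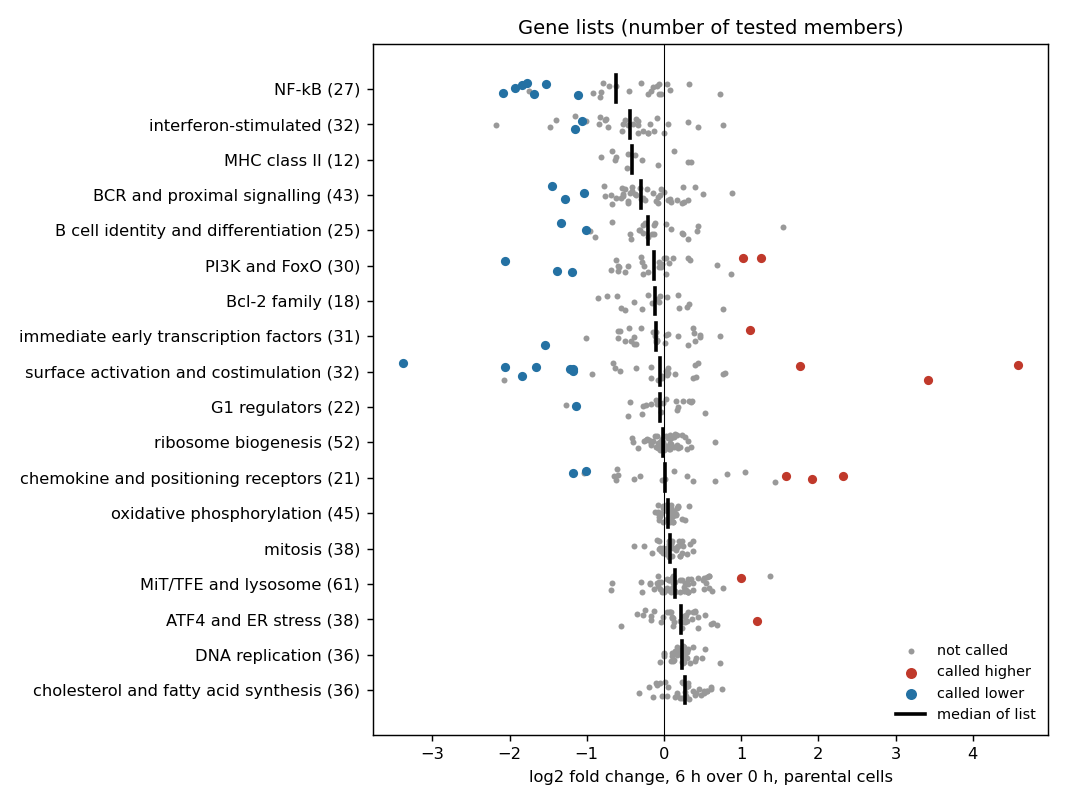
Log2 fold changes at 6 h of the tested members (points) of 18 gene lists, with called genes in colour and a bar at each list's median. The NF-κB list has the lowest median (−0.62), and the surface activation and chemokine lists hold calls in both directions.

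Among abundant genes, the 10 called with the most CPM were picked after their values were seen. They include Ccl22, Irs2, Syk, Ltb and Cxcr5. Lyst, a lysosomal trafficking regulator, fell from 696 and 914 to 240 and 274 CPM (log2 fold change −1.65 ± 0.16, adjusted p = 3.72e-06). Atp2a3, a calcium pump of the endoplasmic reticulum, fell from 628 and 818 to 247 and 299 CPM (log2 fold change −1.40 ± 0.13, adjusted p = 4.83e-07). Mtmr4, a phosphatase of endosomal lipids, rose from 165 and 174 to 390 and 373 CPM (log2 fold change 1.17 ± 0.08, adjusted p = 1.45e-08). Irag2 fell from 438 and 496 to 208 and 223 CPM, and Klhl14 from 359 and 387 to 187 and 174 CPM, the latter at the limit of the fold (log2 fold change −1.05, and −0.99 without the second untreated library).

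By 18 h many of the levels seen at 6 h had moved on. Between 18 h and 6 h 2061 genes were called, 13.5% of those tested. That comparison shares the 6 h libraries with the response above, so the levels are given side by side. Fibcd1 read 0.0892 and 0.0519 CPM at 18 h, Il1rn 0.357 and 0 CPM, Tubb6 4.64 and 3.48 CPM, and Scd4 2.59 and 2.85 CPM. Ccl22, at 159 and 97.0 CPM, lay below its untreated level by 18 h. Lpl (4.91 and 3.89 CPM) and Lgals7 (5.08 and 5.24 CPM) were near their 6 h level. Of the genes that fell, the steepest returns, by the same limits on name and CPM, were those of Fry (74.5 and 87.0 CPM at 18 h), Dysf, Itgb7 (174 and 189 CPM), Sspn and Tcp11l2. Dysf, a membrane repair gene, read 8.07 and 13.9 CPM untreated, 2.45 and 4.05 CPM at 6 h, then 33.5 and 35.0 CPM at 18 h. Sspn read 18.5 and 22.7, 5.59 and 7.32, and 60.5 and 68.5 CPM at the same times, and Tcp11l2 24.95 and 39.6, 12.1 and 13.9, and 118 and 124 CPM. The fall of Tcp11l2 at 6 h was not called in a fit to the 4 libraries alone (adjusted p = 0.0125). All of them were higher at 18 h than untreated cells. Pim1 (26.3 and 19.97 CPM), Cdh22 (5.53 and 4.36 CPM) and Axin2 (4.82 and 5.55 CPM) were near their 6 h level. Median log2 fold changes from 6 h to 18 h were 0.13 for the NF-κB list, 0.76 for the receptor and proximal signalling list, 1.74 for MHC class II, −0.75 for DNA replication, −1.46 for ribosome biogenesis and −0.69 for sterol and fatty acid synthesis. Ciita had 81.7 and 84.6 CPM and Myc 72.8 and 43.2 CPM at 18 h.

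The TFEB mutant clones provide 8 further libraries at 0 h and 6 h of the same stimulus. They do not enter the parental levels, but the fit shares 1 spread per gene over all 18 libraries, so that they bear on the parental adjusted p. Both clones are labelled TFEB KO, and the study describes its mutants as TFEB-deficient. Tfeb transcript was still counted in them, at 25.5 to 30.4 CPM in A-59 and 34.2 to 50.6 CPM in B-20 over both times. Gene-level read counts do not show whether an edited transcript yields protein. The second B-20 library at 6 h stood apart, its 10 most abundant genes holding 6.69% of counts against 3.89% to 4.61% in the others, so results with and without it are given. The mean response of the clones had the parental sign in 166 of the 179 genes called higher (164 without that library) and 212 of the 223 called lower (213 without it). Of all tested genes 52.5% were above 0 in the clones. Called in the same direction in the clones were 46 genes called higher, or 25.7%, against 0.633% of all tested genes called higher in the clones (40 without the library). Likewise 52 genes called lower, or 23.3%, were called lower in the clones, against 0.561% of all tested (50 without it). A gene without a name, Gm6145, was called in the opposite direction. The median log2 fold change of the genes called higher was 1.59 in parental cells, where they were chosen, 0.89 in A-59 and 0.79 in B-20. For the genes called lower it was −1.34, −0.63 and −0.63. Over all 15318 genes the parental and mean clone responses had a Pearson correlation of 0.48 and a Spearman correlation of 0.48, which describes genes and not independent replicates. These responses share no library, but the fit gives each gene 1 spread for both.

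Several of the leading genes were also called in each clone. Pim1 had log2 fold changes of −2.51 in A-59 and −2.28 in B-20, beside −2.56 in parental cells. In the same order Nfkbid had −1.71 and −1.56 beside −1.78, Tnfaip3 −1.82 and −1.57 beside −2.08, and Ccnd2 −1.34 and −1.26 beside −1.14. Nfkbia had −1.35 and −1.09 beside −1.94, and Cd40 −1.12 and −1.04 beside −1.84. Tubb6 had 2.97 and 2.22 beside 3.84, and Nab2 1.87 and 2.05 beside 1.11. The test of the difference from the parental response missed the limit for each of them, with adjusted p from 0.027 for Cd40 to 0.84 for Pim1, which does not show that the responses were alike. Havcr1 was called in A-59 (2.99, adjusted p = 0.0043) but not in B-20 (2.87, adjusted p = 0.26), where it read 0.134 and 0 CPM untreated. The NF-κB list had medians of −0.48 and −0.37, and the lysosomal genes of 0.25 and 0.12.

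The difference of the parental and the mean clone response, tested as an interaction, was called for 39 genes, 0.255% of those tested (30 without the library that stood apart). Without the second untreated parental library it was called for 17, and without the second parental library at 6 h for 21. The 5 largest in each direction are given among genes also called in parental cells, with a gene name and a parental mean of at least 5 CPM in the higher group. Sh2d1b1 (4.86), Slc6a20a (2.98), Gm6145 (3.10) and Krt14 (−2.21) would otherwise rank among them. In A-59, Scd4 read 0.914 and 1.24 CPM untreated and 1.10 and 0.906 CPM after stimulation. In B-20 it read 0.402, 0.62, 0.64 and 0.784 CPM in the same order, beside the parental 26.8 and 28.2 CPM at 6 h. The difference was 4.71 ± 0.36 on the log2 scale (adjusted p = 1.78e-06). Kifc3 stayed between 0.305 and 1.27 CPM in all 8 clone libraries (difference 2.62 ± 0.36, adjusted p = 6.80e-04). Ccr7 stayed between 0.492 and 1.05 CPM (difference 2.31 ± 0.37, adjusted p = 0.0025), and lost the call in 4 of 12 fits without 1 library. Alcam rose in the clones as well, to 6.63 and 9.24 CPM in A-59 and 9.70 and 10.1 CPM in B-20, by less than in parental cells (difference 2.22 ± 0.31, adjusted p = 7.66e-04). Lztfl1, a regulator of protein traffic in cilia, rose from 26.9 and 23.8 to 91.8 and 98.1 CPM in parental cells and read 11.1 to 16.3 CPM in the clones at both times (difference 1.99 ± 0.19, adjusted p = 3.98e-05).

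In the other direction, Cntn2, a neural adhesion gene, fell from 39.6 and 31.2 to 14.6 and 9.62 CPM in parental cells. In A-59 it read 101 and 84.6 CPM untreated and 139 and 136 CPM at 6 h, and in B-20 80.0, 72.0, 58.5 and 55.5 CPM (difference −1.63 ± 0.18, adjusted p = 1.10e-04). Cacna1i, a calcium channel, fell from 52.1 and 61.5 to 20.3 and 23.3 CPM in parental cells, and the clones had log2 fold changes of −0.02 and −0.16 (difference −1.29 ± 0.14, adjusted p = 1.10e-04). Icosl, Ank3 and Septin3 had differences of −1.43, −1.35 and −1.45, which kept their call in 9, 10 and 5 of 12 fits without 1 library. Fibcd1 reached at most 0.114 CPM in any clone library at 6 h, and its difference missed the adjusted p (0.082). Baselines already differed for some genes, among them Kifc3 and Irs2. Before stimulation Irs2 had 160 and 163 CPM in the parental line against 32.3 to 39.96 CPM in the clones. For such genes a difference of log2 responses compares cells that start from other levels.

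**Figure D5:**
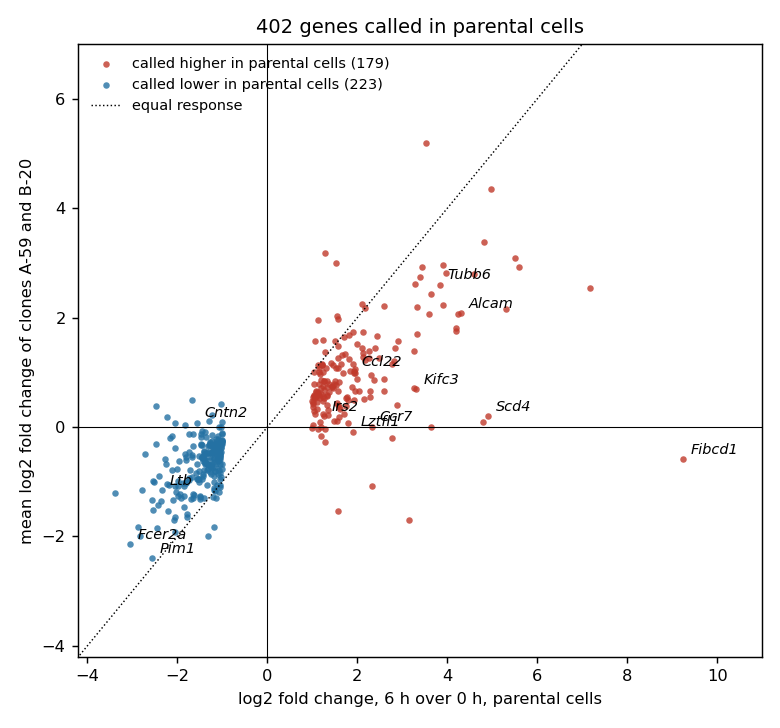
Log2 fold change at 6 h in parental cells (x axis) against the mean log2 fold change of clones A-59 and B-20 (y axis) for the 402 genes called in parental cells. Most points keep their sign and lie nearer to 0 on the clone axis; Scd4, Kifc3, Ccr7 and Fibcd1 lie far right and near 0 or below it on the clone axis (Kifc3 at 0.69).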

How the data were processed

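RNA of parental WEHI-231 cells and 2 TFEB mutant clones was sequenced in 18 libraries, 2 per group, and grouped by label. The deposited values are raw read counts for each Ensembl gene, without normalization. According to the study's methods and the labels, the authors made non-stranded mRNA libraries, sequenced single ends, aligned with STAR 2.5 to GRCm38 and counted with featureCounts 1.5.0-p1. Counting options are not given in the sources used here. All 18 tables were used, and 0 columns were left out.

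Counts were analysed with edgeR 4.0.16 in R 4.3.3 (filterByExpr, TMM, robust quasi-likelihood F-test, 9 group means over all 18 libraries, which share 1 spread per gene). Benjamini-Hochberg adjustment ran over 15318 genes. Calls needed an adjusted p under 0.01 and a log2 fold change beyond 1, the limits of the study. With 2 libraries per group these p-values rest on the spread pooled over groups. Values after ± are SE for log2 fold changes. No 2 libraries of a group were alike within sampling noise. Counting intervals are exact at 95% and, like the floor of 3 counts, cover counting error only.

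Genes named are the 12 largest non-overlapping calls in each direction with at least 5 CPM and a gene name, called members of 30 hand-written lists, 14 genes tied to the study, and the 5 largest in each direction of the 18 h and clone contrasts by the same limits. The members, lists and rules were chosen with earlier results of these data known. Coordinates and promoters are from RefSeq on GRCm38.p6, and symbols from GENCODE. Alternatives were DESeq2 1.42.0, its size factors, other filters, other sets of libraries, and a replicate block.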

Additional observations from a re-analysis of the deposited data

Results flagged for a closer look

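Results are listed here where the 6 h response of parental cells differed from the mean response of both TFEB mutant clones in a test of the difference itself (edgeR's quasi-likelihood interaction test, Benjamini-Hochberg adjusted). The values are parental minus clone responses on the log2 scale, for genes named in the report. The parental response lay above that of the clones for Scd4 (4.71), Kifc3 (2.62), Ccr7 (2.31), Alcam (2.22), Lztfl1 (1.99), Ms4a6c (1.625) and Irs2 (1.06). It lay below that of the clones for Cntn2 (−1.63), Septin3 (−1.45), Icosl (−1.43), Ank3 (−1.35), Cacna1i (−1.29), Ltb (−1.18), Itgb7 (−1.15) and Gpr18 (−1.095). The mean clone response itself was above 0 for Septin3 (0.43), Icosl (0.21), Gpr18 (0.09) and Cntn2 (0.07), none of them past the adjusted p. In A-59 alone Cntn2 had a log2 fold change of 0.56 (adjusted p = 0.0099).

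Scd4, Alcam, Lztfl1, Irs2, Cntn2 and Cacna1i were called in all 12 fits that left out 1 library, with adjusted p up to 0.0099. Septin3 was called in 5 of them and Ms4a6c in 4. Without the B-20 library that stood apart, the differences were 4.78 for Scd4, 2.24 for Alcam, 1.96 for Lztfl1 and −1.12 for Ltb, and all 15 genes were called. Groups of 2 libraries are too small for a test of single outlying libraries.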

How the results depend on the processing

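The 402 calls of the parental response became 401 with DESeq2's size factors, 452 with no filter on low counts, 448 with only the libraries compared and 347 with DESeq2. They became 254 (84 higher) with at least 10 counts in every library, a filter that removes genes absent before stimulation, and 1124 with no limit on the fold change. Leaving out 1 library gave 240 to 332 calls, 111 to 122 of them higher and 129 to 215 lower. The lowest total, 240, was without the second untreated library, and 226 of these were among the 402. The 179 genes called higher became 117, 111 and 116 without the first untreated, the second untreated and the second 6 h library, and the 223 called lower became 129 without the second untreated library.

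From 6 h to 18 h, 2061 calls became 5864 with no limit on the fold change and 1712 to 1960 without 1 library. The clone response had 183 calls, 95 with at least 10 counts in every library, 1357 with no limit on the fold change and 117 to 207 without 1 library, the lowest without the second untreated B-20 library. The difference of responses had 39 calls, 79 with no filter on low counts, 88 with no limit on the fold change and 17 to 54 without 1 library. It had 17 without the second untreated and 21 without the second 6 h parental library.

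Replicate numbers were shared by all groups. Deviations of same-numbered parental libraries at 0 h and 6 h correlated at 0.126 (−0.0258 to 0.32 over 36 pairs of groups, median 0.0777), which with 2 numbers does not show that they pair the samples. With the number as a replicate block, 441 genes were called in the parental response, 400 of them among the 402, 2121 from 6 h to 18 h, 198 in the clones and 53 in the difference. None of the 83 genes run under these alternatives reversed its direction in the parental response, 12 of them being untested under the filter of 10 counts. The medians of the immediate early, calcium and NFAT, Myc network, G1, caspase, chemokine, glycolysis and ribosome biogenesis lists lay on both sides of 0 when 1 library was left out. Depth limits the low genes: 3 counts correspond to 0.109 to 0.134 CPM in the parental libraries at 0 h and 6 h.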
